A study of Mus musculus with 4 samples.

Results

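Alveolar type 1 (AT1) nuclei made up 5153 of the 134745 barcodes that held 1500 or more unique molecular identifiers (UMIs, each counting 1 captured RNA molecule) in single-nucleus RNA sequencing of mouse lung. A barcode was taken as an AT1 nucleus when it held 6 or more UMIs from at least 4 of the 8 genes Rtkn2, Lama3, Rasgrf2, Sema3a, Frmpd1, Slc22a22, Ager and Hopx, at most 2 UMIs of the leukocyte gene Ptprc, and at most 3 UMIs in all from the endothelial genes Pecam1, Cdh5, Tek and Ptprb. There were 780 such nuclei of 26933 barcodes in mouse WT 1, 1236 of 38543 in WT 2, 1611 of 25269 in Tg 1 and 1526 of 44000 in Tg 2. The 2 WT mice were of strain C57/BL6J. The 2 Tg mice were VEcad-TRF2DN-Tg, which carry a dominant-negative form of the telomere-binding protein TRF2 under the VE-cadherin promoter, a promoter of endothelial cells (ECs); the transgene itself was not measured in AT1 nuclei. Per the study's methods the Tg mice also have a C57/BL6J background, are heterozygous and were bred with WT C57/BL6J mice. The mice are male by the same methods. The age given for mice used in experiments is 8 to 9 weeks. The study describes these lungs as taken after chronic hypoxia, which its methods say lasted weeks. The 4 mice may thus have been older at collection, and no comparison with normal oxygen can be made. The comparison asks how the lung epithelium that lies against the capillaries differs when the ECs carry the transgene. Each library is 1 mouse by its label, and the labels give no batch.

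AT1 cells are large, thin squamous cells that cover most of the gas exchange surface of the alveolus, where they share a basement membrane with the capillary ECs. They arise in development from the alveolar progenitor and, after injury, from alveolar type 2 (AT2) cells, the cuboidal cells that make surfactant; cells on the way from AT2 to AT1 are known for high Krt8. AT1 cells are also a source of signals to the vessel wall, among them vascular endothelial growth factor A. Because the cytoplasm is stripped from nuclei before capture, the RNA of broken cells stays free in the suspension and enters every droplet. Levels in droplets without a nucleus were therefore set beside many of the results.

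The label held against markers that the rule did not use. Limch1, an actin and myosin regulator, stood at 6077 and 5403 CPM in WT and 4339.6 and 4768 in Tg (a gene's UMIs scaled to the same total in each mouse and class). In AT2-enriched barcodes, a comparison group of 4504 barcodes with clear AT2 marker counts, Limch1 stood at 548 to 715. Clic5, a chloride channel family protein, stood at 1533 and 1123 in WT and 1301 and 1301 in Tg in AT1 nuclei against 119 to 161 in AT2-enriched barcodes. Pdpn, the podoplanin gene that is the classical AT1 surface marker, stood at 241 and 187 in WT and 204 and 182 in Tg in AT1 nuclei against 29.8 to 55.6. All 24 unused AT1 markers were higher in AT1 nuclei than in AT2-enriched barcodes in each of the 4 mice, 23 were higher than in all other barcodes, and 20 were higher than in droplets without a nucleus. Those that were not include Aqp5, the aquaporin of the apical AT1 membrane, at 54.8 and 44.5 in WT and 84.1 and 67.6 in Tg in AT1 nuclei and 47.9 and 56.3 in WT and 111 and 96.5 in Tg in droplets without a nucleus, and Cryab, at 9.43 and 18.6 in WT and 52.6 and 48.9 in Tg and 16.2 and 35.4 in WT and 132 and 99.9 in Tg. These levels describe nuclei picked by their genes, and no test was made of them.

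**Figure D1:**
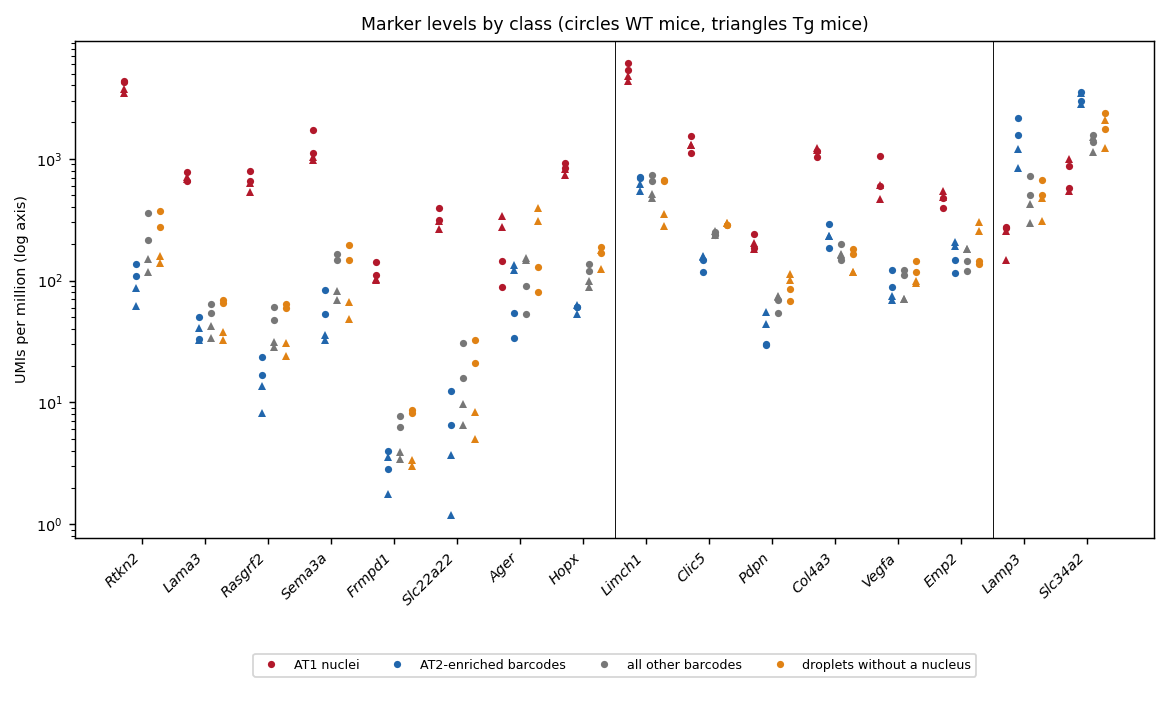
Level of marker genes in CPM (log axis) in AT1 nuclei (red), AT2-enriched barcodes (blue), all other barcodes (grey) and droplets without a nucleus (orange), with circles for WT mice and triangles for Tg mice. The 8 genes left of the first line were used by the rule, the 6 between the lines were not, and the last 2 mark AT2 cells; Limch1 and Clic5 separate AT1 nuclei from the other classes in every mouse, while Ager lies within the range of free RNA.

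Of the genes that the rule used, Rtkn2 had at least 1 UMI in 96.9% to 99.1% of AT1 nuclei and stood at 4296 and 4363 CPM in WT and 3706 and 3473 in Tg, against 140.3 to 369 in droplets without a nucleus. Rtkn2 also had a UMI in 17.0% to 48.3% of the other barcodes. Sema3a, a secreted guidance molecule, stood at 1736 and 1122 in WT and 970.1 and 1039 in Tg, and Hopx, a homeodomain protein without DNA binding, at 918 and 836 in WT and 819 and 729.8 in Tg. Slc22a22, an organic anion transporter family gene, had a UMI in 48.6% to 54.8% of AT1 nuclei and in 1.19% to 5.96% of the other barcodes. Frmpd1 had a UMI in 26.7% to 36.9% and 0.892% to 1.68%. Ager, which encodes the receptor for advanced glycation end products and is among the best known AT1 genes, was the exception. It stood at 88.7 and 144 CPM in WT and 338 and 277 in Tg in AT1 nuclei and at 81.1 and 129 in WT and 395 and 306 in Tg in droplets without a nucleus.

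Among genes that the rule did not use and that had at least 100 UMIs in AT1 nuclei of each mouse, those most concentrated in AT1 nuclei, ranked by the lowest fold over all other barcodes in any of the 4 mice, began with the noncoding genes Gm16212 (18.6-fold), Gm15337 (10.3-fold) and Gm1968 (10.0-fold). Dlg4, a scaffold protein best known from synapses, followed at 9.78-fold, with 281 and 297 CPM in WT and 184 and 180.3 in Tg. Popdc3, a cyclic nucleotide-binding membrane protein, was at 9.73-fold. Adcy5, an adenylyl cyclase, was at 9.35-fold, with 71.6 and 61.9 in WT and 58.4 and 59.7 in Tg. Cped1 was at 7.43-fold, with 1972 and 1683 in WT and 1607 and 1432 in Tg, and Scel, the cornified envelope precursor sciellin, was at 7.10-fold, with 452 and 329.8 in WT and 296 and 301 in Tg. Of the 20 genes at the top of this ranking, Syt14 was the only one whose level differed between the genotypes past the threshold used below.

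Promoter sequences are shown for 3 marker genes because they hold the letters of motifs bound by factors known in alveolar epithelium: NKX2-1, the lineage factor of lung epithelium, and the hypoxia-inducible factor (HIF). Each is the 250 bases before a RefSeq transcript start in GRCm38.p6, read on the minus strand from 5′ to 3′, with motif letters in capitals. The motif searched was CAAGTG for NKX2-1 and ACGTG for HIF, on both strands, and overlapping HIF matches share capitals.
Slc22a22, chr15:57477626-57477875, with an NKX2-1 match: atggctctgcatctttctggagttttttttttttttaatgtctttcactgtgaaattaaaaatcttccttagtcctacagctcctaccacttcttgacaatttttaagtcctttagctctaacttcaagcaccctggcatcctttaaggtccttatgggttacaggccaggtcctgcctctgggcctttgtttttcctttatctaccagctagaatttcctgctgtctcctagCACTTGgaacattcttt
Hopx, chr5:77095268-77095517, with HIF matches: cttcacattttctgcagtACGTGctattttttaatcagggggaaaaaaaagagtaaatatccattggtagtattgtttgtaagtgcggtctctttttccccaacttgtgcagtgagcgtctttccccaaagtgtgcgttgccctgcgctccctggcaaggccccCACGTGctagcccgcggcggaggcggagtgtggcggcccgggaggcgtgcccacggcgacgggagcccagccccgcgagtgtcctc
Cldn18, chr9:99710064-99710313, with both: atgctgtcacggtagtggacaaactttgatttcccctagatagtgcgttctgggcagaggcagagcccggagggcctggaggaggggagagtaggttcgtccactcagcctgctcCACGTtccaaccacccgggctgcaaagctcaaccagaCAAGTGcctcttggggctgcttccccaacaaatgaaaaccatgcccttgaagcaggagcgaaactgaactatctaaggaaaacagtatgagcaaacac
RefSeq promoters were found for 26 of the 32 AT1 markers, as 38 promoters. The NKX2-1 letters stood in 5 of the 38 promoters, of the genes Cav2, Cldn18, Limch1, Scnn1g and Slc22a22, against 11.6% of all 32851 promoters. The HIF letters stood in 15 of the 38, of 13 genes, against 16.6% of all promoters, and the letters GGAATG of the TEAD motif stood in none, against 12.6% of all. A match is a run of letters and not a bound site.

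Nuclei near the edges of the rule differed in number between libraries. At exactly 6 marker UMIs the rule took 49 and 191 barcodes in WT and 29 and 63 in Tg, and at exactly 5 it left out 150 and 345 and 45 and 118. With 4 marker genes detected it took 157 and 367 in WT and 233 and 246 in Tg, and with 3 genes it left out 134 and 244 and 133 and 218. Within 100 UMIs above the minimum depth it took 7 and 38 and 23 and 13 barcodes, and within 100 below it left out 8 and 26 and 16 and 12. At a depth of 1500 UMIs free RNA alone gives 1.1 to 1.51 UMIs of the 8 genes. The marker UMIs of the median AT1 nucleus were 10.1, 7.30, 9.21 and 10.3 times what free RNA gives at its depth in WT 1, WT 2, Tg 1 and Tg 2. Nuclei under 3 times that level were 7.69% and 17.1% of the class in WT and 3.23% and 7.27% in Tg, the most in WT 2.

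The AT1 nuclei held 3923501 and 6330402 UMIs in all in WT and 6041561 and 6898036 in Tg. Per nucleus the lowest depth was 1500 to 1517 UMIs, the median 4117.5 and 3615 in WT and 3346 and 3895.5 in Tg, and the highest 45639 and 37589 and 25036 and 28073. Nuclei above 10000 UMIs numbered 53 and 146 in WT and 14 and 55 in Tg. The median AT1 nucleus had UMIs of 2146.5 and 2072.5 genes in WT and 1697 and 2153 in Tg. No doublet caller was run. From 0 to 1 AT1 barcode sequences were shared by a pair of libraries.

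**Figure D2:**
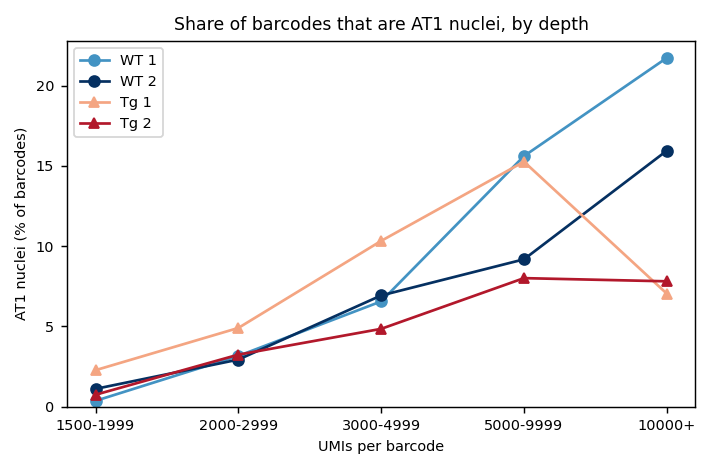
AT1 nuclei as a percentage of all barcodes (y axis) in 5 classes of UMIs per barcode (x axis), with 1 line per mouse (circles WT, triangles Tg). In the class of 10000 or more UMIs AT1 nuclei were 21.7% and 15.9% of barcodes in WT and 7.04% and 7.80% in Tg.

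Markers of other cell types were present in the class. Of the AT1 nuclei, 266 and 984 in WT and 222 and 699 in Tg also had 6 or more UMIs from at least 4 genes of an immune marker list, most in WT 2 and Tg 2. The same measure gave 26 to 54 nuclei per mouse for ciliated markers and 14 to 51 for fibroblast and pericyte markers. Csf1r, the receptor for macrophage colony-stimulating factor and a macrophage marker, stood at 128 and 125 CPM in WT and 132 and 145 in Tg in AT1 nuclei and at 9.41 to 27.3 in AT2-enriched barcodes. It was the only 1 of 16 immune markers above AT2-enriched barcodes in all 4 mice, and 5 were below in all 4. Summed, the 16 stood at 1512 and 3438 in WT and 1397 and 3088 in Tg in AT1 nuclei. In AT2-enriched barcodes the sums were 1865, 3457, 1586 and 3532, and in droplets without a nucleus 4258, 8060, 4003 and 8476. The part of free RNA and of doublets in the counts of nuclei was not tested. The summed level of the 18 AT2 markers was 3144 and 4965 CPM in the AT1 nuclei of the WT mice and 8442 and 9455 in those of the Tg mice, against 8105, 10428, 26626 and 23821 in droplets without a nucleus.

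Free RNA and 1 library moved with the genotype, and both bear on every comparison below. Taking all Scgb1a1, Scgb3a2 and Sftpc counts, which come from club and AT2 cells, as free RNA, its share of AT1 UMIs was at most 33.4% and 39.6% in WT and 25% and 31.3% in Tg. Genes of secretoglobins and surfactant proteins made up 1.99% and 1.98% of the free RNA of the WT mice and 14.7% and 5.5% of that of the Tg mice. In AT1 nuclei they made up 0.658% and 0.802%, and 3.71% and 1.77%. Tg 1 stood apart in Malat1, an abundant nuclear noncoding RNA, which took 19.5% of its AT1 UMIs against 9.24% in Tg 2 and 6.67% and 7.84% in WT. Mitochondrial genes took 0.0404% and 0.0653% of AT1 UMIs in WT and 0.231% and 0.255% in Tg.

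**Figure D3:**
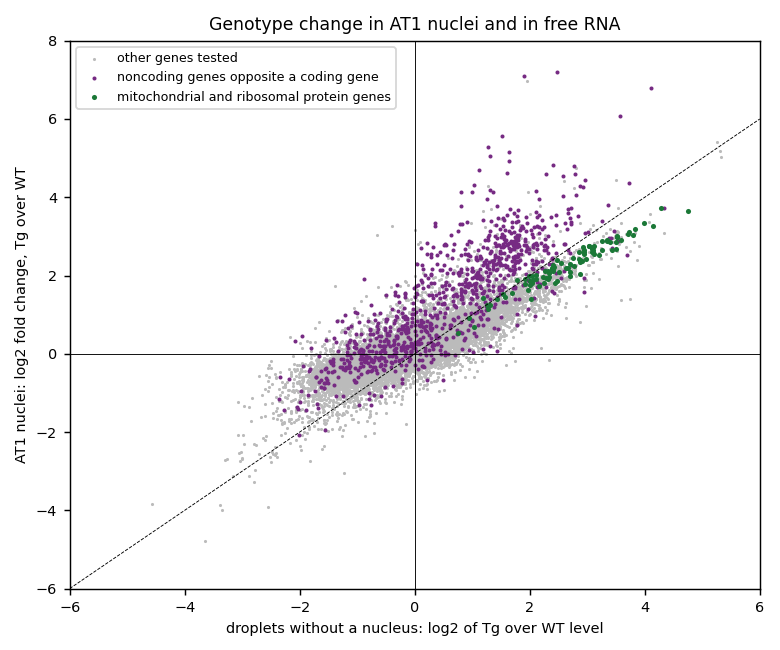
Genotype difference (Tg over WT, log2) of each tested gene in AT1 nuclei plotted against its difference in droplets without a nucleus, 1 point per gene, both axes on the log2 scale and the dashed line marking equal differences. Mitochondrial and ribosomal protein genes (green) were higher in Tg on both axes, with medians of 2.40 and 2.20 in AT1 nuclei, and many noncoding genes opposite a coding gene (purple, median 1.32) lie above the dashed line.

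Between the genotypes, 924 of 14867 genes tested in AT1 nuclei (6.22%) passed an adjusted p of 0.05 (edgeR's quasi-likelihood test on UMI counts summed per mouse, Benjamini-Hochberg adjustment), of which 862 (5.8%) were higher and 62 (0.417%) lower in Tg. Among the higher genes, 3 kinds were frequent. Of 924 noncoding genes that lie on the other strand of a protein-coding gene, 262 rose and 2 fell, with a median log2 difference of 1.32; among the 703 other noncoding genes 13 rose and 8 fell, with a median of -0.06. Of 80 genes of cytoplasmic ribosomal proteins 68 rose, with a median of 2.20, and of 13 mitochondrial genes 12 rose, with a median of 2.40. In droplets without a nucleus the ribosomal genes differed by a median of 2.59 and the mitochondrial genes by 2.87. Of a list of 16 genes that read RNA quality, 14 rose, with a median of 2.19. The median of all genes was 0.01. Both Tg mice lay above both WT mice for 31.1% of the genes tested and below both for 27.5%, so a gap between the genotypes alone is common.

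The number of calls fell when Tg 1 was left out. Without it, 4 genes passed and 1670 had an unadjusted p under 0.05, with the remaining Tg mouse assumed to vary like the WT mice. The 4 were the hemoglobin genes Hbb-bt, Hbb-bs and Hba-a2 and the secreted epithelial protein gene Slurp1, which stood in AT1 nuclei at 0.267 to 0.29 times their level in droplets without a nucleus. Every genotype call named below is therefore lost without Tg 1, with 1 Tg mouse left to compare, while the log2 differences of several stayed close: -1.62 for Taco1, -0.93 for Isoc2a, -1.17 for Syt14, 1.25 for Krt8 and 2.51 for Phlda3. Some moved further, such as to 3.73 for Gm44649 (from 4.81), 3.69 for Egfros (4.60), 1.55 for Cldn3 (2.36), 2.17 for Wdr17 (2.88) and 1.77 for Nupr1 (2.44). Without Tg 2, 437 genes passed, and calls named below were lost as well, among them those of all 4 falls described next: Taco1 (-1.93, adjusted p = 0.0534), Gm26917 (-1.73, 0.0891), Syt14 (-1.08, 0.129) and Isoc2a (-0.95, 0.0955). The calls of Gm16172, Gm43150, Gm36328, 2310043M15Rik, 4933416M07Rik, Cavin3, Cryab, Dbp, Klf4, Lgals3, Nlrc5, Phlda3 and Tnip3 were lost too. Log2 differences of several of these stayed close, such as 7.02 for Gm16172 (from 7.21), 7.18 for Gm43150 (7.09), 2.37 for Cavin3 (2.17) and 2.00 for Cryab (1.85). That of Lgals3 was 0.94 (1.11). With free RNA subtracted from the AT1 counts, 181 of 12873 genes passed (1.41%), 100 of them among the 924. The subtraction ended the calls of Gm16172, Gm43150, Gm36328, Gm27200, 4930533B01Rik, 2310043M15Rik, 4933416M07Rik, Cavin3, Clic3, Cryab, Dbp, Krt8, Krt19, Lamb2, Lgals3, Nlrc5, Nupr1 and Tnip3. Some log2 differences stayed close, such as 7.07 for Gm16172 (from 7.21), 6.82 for Gm43150 (7.09), 5.80 for Gm27200 (6.07), 1.97 for Cavin3 (2.17) and 1.87 for Cryab (1.85). That of 2310043M15Rik was larger, at 7.57 (5.29). Others shrank, such as to 0.56 for Dbp (1.34), 0.67 for Lgals3 (1.11), 1.12 for Krt19 (1.86) and 0.97 for Clic3 (1.45). Thinning nuclei to 1500 UMIs ended the calls of Cldn3 (2.90, adjusted p = 0.0555) and Phlda3 (1.94, 0.0673). Leaving out mixed nuclei ended that of Cavin3 (2.27, 0.0552), and stricter markers that of Tnip3 (-2.44, 0.0763). Without mixed nuclei 245 and 143 AT1 nuclei were left in WT and 1075 and 448 in Tg. Of the 10 largest rises named below, only Gm44649 was tested there, and with thinning only Gm44649, Egfros and 1700094J05Rik. Cldn3 and Phlda3 were not tested with free RNA subtracted. With 2 mice a genotype, a gene that did not pass is not shown to be unchanged.

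Genes past the threshold that stood at least 2-fold higher in AT1 nuclei than in droplets without a nucleus, by the mean of the 4 mice, are described here. A gene can meet that limit through Tg alone, so the genes named describe the largest differences and their number is not read. Of the falls, the largest was Taco1, a translational activator of a mitochondrial cytochrome c oxidase subunit, at 349.7 and 245 CPM in WT and 72.8 and 102 in Tg, or 1372 and 1550 UMIs in WT and 440 and 702 in Tg. Both Tg mice lay below both WT mice (log2 difference -1.77, SE 0.25, adjusted p = 0.019). Taco1 differed by -2.15 in free RNA and passed with free RNA subtracted (adjusted p = 0.0361). The difference was -1.69 in AT2-enriched barcodes and -1.46 in all other barcodes. Gm26917, a noncoding gene, stood at 918 and 587 in WT and 213 and 273 in Tg (-1.64, SE 0.27, adjusted p = 0.0252). Its difference was -1.34 in free RNA and -1.16 in all other barcodes. Syt14, a synaptotagmin, stood at 53.5 and 41.4 in WT and 20.9 and 22.2 in Tg (-1.13, SE 0.22, adjusted p = 0.0345). That call was lost with nuclei thinned to 1500 UMIs (-0.88, adjusted p = 0.156), at most 10000 UMIs (-1.10, 0.0895) and mixed nuclei left out (-1.23, 0.0649). Isoc2a, an isochorismatase domain protein, stood at 85.6 and 87 in WT and 41.5 and 47.5 in Tg (-0.94, SE 0.16, adjusted p = 0.0257). In free RNA Syt14 differed by -1.52 and Isoc2a by -1.61, and in all other barcodes by -0.97 and -0.81.

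The 10 largest rises under that limit, 3 of them with no UMI in WT, lay opposite protein-coding genes. With barcodes of 10 to 100 UMIs as droplets, only 2 of these 10 stayed among the 10 largest rises. Gm44649, which overlaps Iqgap1 on the other strand, had 3 and 6 UMIs in WT and 217 and 85 in Tg (log2 difference 4.81, SE 0.74, adjusted p = 0.0217). Iqgap1 itself, a scaffold of the actin cortex, was at 640 and 813 CPM in WT and 638 and 841 in Tg. Egfros, opposite the epidermal growth factor receptor gene Egfr, had 3 and 8 UMIs in WT and 217 and 100 in Tg (4.60, SE 0.65, adjusted p = 0.0194), while Egfr was at 321 and 342 and at 332 and 275 CPM. The other rises had few UMIs in WT. Gm16172, opposite Tmem63b, had none in WT and 17 and 24 in Tg, at least 10.8-fold higher against a floor of 3 UMIs over the WT group. Gm43150, opposite Medag, had none and 19 and 18 (at least 9.77-fold), and Gm36328, opposite Dusp16, had none and 17 and 13 (at least 7.92-fold). Gm27200 had 0 and 1 in WT and 65 and 32 in Tg, 4930533B01Rik 0 and 1 in WT and 45 and 23 in Tg, 2310043M15Rik 1 and 0 in WT and 38 and 20 in Tg, 1700094J05Rik 1 and 1 in WT and 45 and 54 in Tg and 4933416M07Rik 0 and 1 in WT and 32 and 16 in Tg. These 10 rises differed by 1.27 to 4.11 in free RNA and by 2.46 to 4.64 in all other barcodes. None of the 10 genes opposite them passed the threshold. Whether the counting used strand is not given in the sources used here, and reads of a gene and of its partner on the other strand may not be told apart.

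That pattern was shared by all barcodes of the same libraries. Noncoding genes opposite a coding gene took 1.1% and 1.05% of AT1 UMIs in WT and 1.83% and 1.55% in Tg, 1.13% and 1.03% and 1.98% and 1.49% of the UMIs of other barcodes, and 1.03% and 0.881% and 0.774% and 0.913% of free RNA. As a share of UMIs they were thus higher in both Tg mice in AT1 nuclei and in other barcodes, and overlapped or were lower in free RNA. Gene by gene, the median log2 difference of those tested was 1.28 in other barcodes and 0.55 in free RNA.

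Of the protein-coding rises that lie opposite no coding gene, 2 chosen after their values were seen are described here. Igf2r, the receptor that sorts lysosomal enzymes and takes up insulin-like growth factor 2, stood at 68.3 and 59.4 CPM in WT and 202 and 153 in Tg (log2 difference 1.5, SE 0.24, adjusted p = 0.0246). Its difference was 0.09 in free RNA, 0.59 in AT2-enriched barcodes and 1.07 in all other barcodes, and with free RNA subtracted it kept an adjusted p of 0.0352. Igf2r overlaps the noncoding gene Airn on the other strand, which stood at 898 and 898 in WT and 1015 and 979 in Tg. Wdr17, a WD repeat protein, stood at 116 and 89.9 in WT and 979.9 and 487 in Tg (2.88, SE 0.41, adjusted p = 0.0195). Its difference was 2.40 in free RNA, 3.67 in AT2-enriched barcodes and 3.82 in all other barcodes.

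Across 14 lists of genes of AT1 biology, 279 genes were tested and 15 passed, close to the 6.22% of all genes. This pooled count is thus no result about the lists, and the calls were not spread evenly over them. In the same edgeR test an unadjusted p under 0.05, given for some lists below, was reached by 4058 of all 14867 genes. The levels of the list members follow by role.

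**Figure D4:**
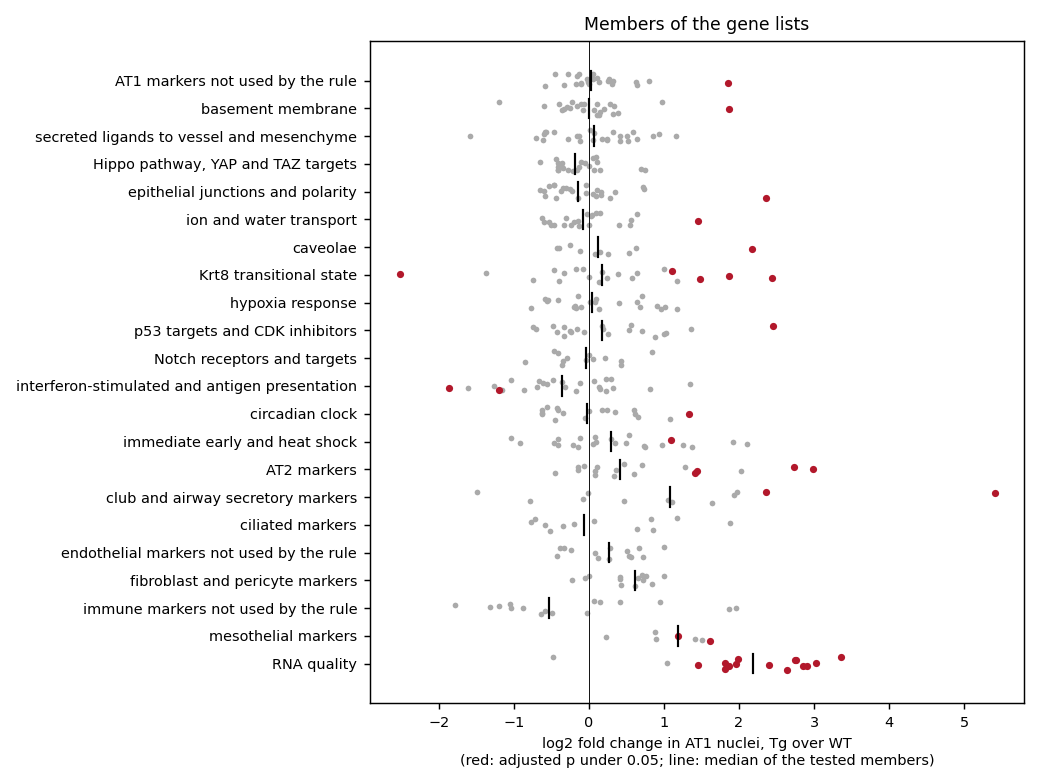
Log2 difference between Tg and WT AT1 nuclei for each tested member of the gene lists, one row per list, with members past the threshold in red and the list's median as a vertical line. Most members of the AT1 lists lie within 1 of zero, while the RNA quality list has a median of 2.19.

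Markers that the rule did not use had a median difference of 0.03, and 1 of 24 passed. Vegfa, the main growth factor for alveolar capillaries, stood at 1045 and 597 CPM in WT and 614 and 466 in Tg, with WT 1 well above the others (log2 difference -0.59, SE 0.34, adjusted p = 0.306). Its level in AT2-enriched barcodes was 69 to 123. Col4a3 and Col4a4, the collagen IV chains of the mature alveolar basement membrane, stood at 1169 and 1033 in WT and 1231 and 1169.9 in Tg and at 1491 and 1109 in WT and 1226 and 1184 in Tg; both Tg mice lay above both WT mice for Col4a3 (adjusted p = 0.711), and the genotypes overlapped for Col4a4. Cav1, the main protein of caveolae, stood at 438 and 556 in WT and 577 and 593 in Tg, with all 4 mice far above the AT2-enriched 42.5 to 112. Emp2, a tetraspan membrane protein, stood at 475 and 392 in WT and 546 and 483 in Tg, Akap5, an anchor of protein kinase A, at 270.2 and 204 in WT and 344 and 229 in Tg, and Igfbp2, a binding protein of insulin-like growth factors and a marker of mature AT1 cells, at 185 and 74.2 in WT and 109 and 103 in Tg. The member that passed was Cryab, a small heat shock protein (1.85, SE 0.30, adjusted p = 0.025), whose level was below that of free RNA in every mouse.

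**Figure D5:**
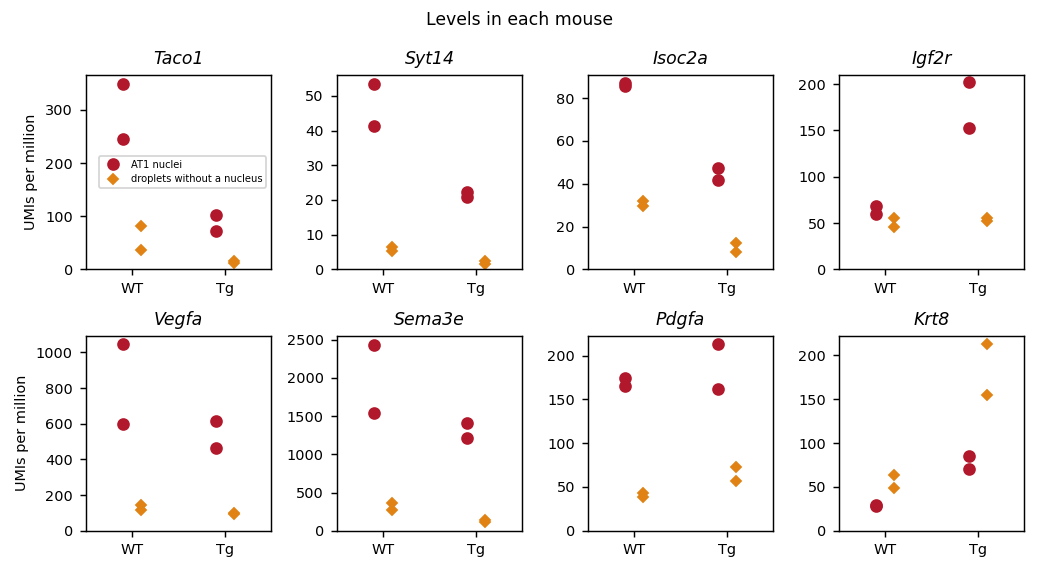
Level in CPM of 8 genes in AT1 nuclei (red circles) and in droplets without a nucleus (orange diamonds), with 1 symbol per mouse. Taco1, Syt14, Isoc2a and Igf2r separate the genotypes in AT1 nuclei and lie above free RNA there, Vegfa and Pdgfa overlap between the genotypes, Sema3e is lower in both Tg mice without passing the threshold, and Krt8 lies below free RNA in every mouse.

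The basement membrane list had 24 tested members and a median difference of 0.00. Npnt, nephronectin, an integrin ligand of the alveolar basement membrane, stood at 628 and 578 in WT and 460.1 and 493 in Tg. Itgb6, which pairs with integrin alpha v to activate latent TGF-beta, stood at 357 and 196 in WT and 199.6 and 219 in Tg, with WT 1 the highest and the other 3 mice close together, against 19.1 to 36.2 in AT2-enriched barcodes. Col4a1, a collagen IV chain found in basement membranes throughout the body, stood at 245 and 279 in WT and 290 and 269.8 in Tg and Agrn, agrin, at 169.7 and 104 in WT and 124 and 102 in Tg. Lamb2, a laminin beta chain, was the 1 member that passed, at 7.65 and 9.16 in WT and 35.6 and 24.9 in Tg (1.87, SE 0.31, adjusted p = 0.025), with a level 0.466 times that of free RNA, in which it differed by 2.35.

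In caveolae, the flask-shaped membrane pits that are dense in AT1 cells, 1 of 10 members passed. Cavin3, a coat protein, stood at 2.8 and 5.05 in WT and 19.4 and 16.5 in Tg (2.17, SE 0.35, adjusted p = 0.0245) and at 0.381 times the level of free RNA. Pacsin2, which bends the membrane at the caveolar neck, stood at 231 and 256 in WT and 220 and 223 in Tg, and Cavin2 at 156 and 221 in WT and 212 and 198 in Tg.

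Among junction and polarity genes 1 of 25 passed, with a median of -0.14. Cldn18, the claudin that seals the alveolar epithelium, stood at 245 and 256 in WT and 249 and 288 in Tg and overlapped between the genotypes. Ocln, occludin, stood at 192 and 154 in WT and 137 and 152 in Tg. Magi1 and Magi3, scaffolds of tight junctions, stood at 5076 and 4096 in WT and 3008 and 3639 in Tg and at 3544 and 2079.7 in WT and 1673 and 1899 in Tg; both Tg mice lay below both WT mice for each gene, and neither passed (adjusted p = 0.313 and 0.237). Cldn3 passed, at 6.63 and 6.95 in WT and 47 and 20.9 in Tg (2.36, SE 0.46, adjusted p = 0.0354), at 0.312 times its level in free RNA.

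For ion and water transport, 1 of 22 members passed, with a median of -0.08. The 3 subunits of the epithelial sodium channel, which clears fluid from the airspace, were not among those that passed. Scnn1a stood at 338 and 328 in WT and 307 and 292 in Tg, Scnn1b at 189 and 239 in WT and 222 and 210.3 in Tg and Scnn1g at 188 and 163 in WT and 180.1 and 168 in Tg. Piezo1, a stretch-activated cation channel, stood at 85.4 and 100.2 in WT and 144 and 125 in Tg (adjusted p = 0.131). Clic3 passed, at 10.7 and 13.6 in WT and 37.2 and 28.4 in Tg (1.45, SE 0.27, adjusted p = 0.0323), at 0.407 times its level in free RNA. Its call was lost with free RNA subtracted (0.97, adjusted p = 0.376) and with nuclei thinned to 1500 UMIs (1.40, 0.0754).

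Of secreted ligands that could reach the vessel and the mesenchyme, none of 27 passed. Of these 27, 6 had an unadjusted p under 0.05, against 4058 of all 14867 genes. Sema3e, a ligand for plexin D1 on ECs, stood at 2433 and 1544 CPM in WT and 1213 and 1405 in Tg, against 65.1 to 137 in AT2-enriched barcodes. Both Tg mice lay below both WT mice, with WT 1 well above the other 3 (-0.60, SE 0.29, adjusted p = 0.232). Pdgfa, which acts on alveolar fibroblasts, stood at 174 and 166 in WT and 214 and 162 in Tg. Wnt3a stood at 102 and 82.5 in WT and 122 and 104 in Tg and Wnt7a at 15.5 and 6.79 in WT and 10.8 and 12.2 in Tg; both were low in AT2-enriched barcodes, at 11.1 to 15.3 and 0.518 to 0.682. The Notch ligands had the lowest p-values of the list. Jag2 stood at 4.59 and 5.53 in WT and 10.1 and 9.13 in Tg (adjusted p = 0.124) and Jag1 at 48.4 and 48.3 in WT and 21.2 and 38.1 in Tg (adjusted p = 0.131), in opposite directions.

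The Hippo pathway, whose effectors YAP and TAZ act with TEAD factors to keep AT1 identity, had none of 24 members past the threshold and 4 with an unadjusted p under 0.05, with a median of -0.18. Tead1 stood at 1623 and 1238 in WT and 1046 and 1119 in Tg, against 334 to 419 in AT2-enriched barcodes. Wwc1, a scaffold also known as KIBRA, stood at 961 and 725 in WT and 778 and 838 in Tg, and Ptpn14, a phosphatase that binds YAP, at 371 and 261 in WT and 229 and 246 in Tg. Yap1 stood at 139 and 143 in WT and 87.9 and 119 in Tg, lower in both Tg mice (-0.44, adjusted p = 0.164), and the upstream kinase Stk3 at 249 and 249 in WT and 137 and 178 in Tg (-0.65, adjusted p = 0.0748).

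Genes of the Krt8 transitional state gave 5 calls in 21, of which 4 were higher. The shares were 19% higher and 4.76% lower, against 5.8% and 0.417% of all genes. Krt8, a simple epithelial keratin, stood at 27.8 and 28.9 CPM in WT and 85.1 and 70.7 in Tg (1.48, SE 0.21, adjusted p = 0.0194). It stood at 64.1 and 48.4 in WT and 213 and 155 in Tg in droplets without a nucleus and at 28.2 and 19.7 in WT and 78.6 and 70.4 in Tg in AT2-enriched barcodes. Krt19 stood at 18.1 and 23.4 in WT and 79 and 70.2 in Tg (1.86, adjusted p = 0.0173), Nupr1, a stress-induced nuclear protein, at 16.8 and 10.7 in WT and 94 and 49 in Tg (2.44, adjusted p = 0.0275), and Lgals3, galectin 3, at 67.3 and 72.3 in WT and 124 and 177 in Tg (1.11, adjusted p = 0.025). Tnip3 fell, from 29.8 and 12.3 in WT to 2.15 and 5.07 in Tg (-2.52, SE 0.55, adjusted p = 0.0459), and differed by -3.02 in free RNA. All 5 stood below free RNA, at 0.317 to 0.465 times its level, and with free RNA subtracted none of 18 members passed. The log2 difference was then 1.5 for Krt8, 1.12 for Krt19, 1.26 for Nupr1, 0.67 for Lgals3 and -0.50 for Tnip3.

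At 1500 UMIs per nucleus, Krt8 had a UMI in 5.51% and 3.48% of AT1 nuclei in WT and in 13.2% and 11.3% in Tg (12.3% and 12.2% and 25.5% and 25.9% without thinning). In barcodes that passed the AT2 rule, many of which free RNA alone could bring past it, the thinned shares were 6.33% and 5.30% and 13.4% and 13.0%, higher in each mouse than in AT1 nuclei, while without thinning they were lower in each mouse, at 9.67% and 8.32% and 22.5% and 22.4%. The difference in AT1 nuclei was 7.72 percentage points (exact permutation test over mice, two-sided, p = 0.33, the smallest that 2 mice against 2 allow).

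In the hypoxia response none of 22 passed. An unadjusted p under 0.05 was reached by 7 of them, against 4058 of all 14867 genes. Higd1a, a mitochondrial protein, stood at 17.3 and 23.1 in WT and 37.9 and 37.1 in Tg (adjusted p = 0.0569) and Ndrg1 at 5.35 and 8.06 in WT and 14.6 and 15.9 in Tg (adjusted p = 0.0628). Among p53 targets and CDK inhibitors 1 of 21 passed. Phlda3, a repressor of AKT signalling, stood at 1.53 and 1.42 in WT and 7.28 and 8.84 in Tg (2.46, adjusted p = 0.0227), at 0.297 times its level in free RNA. Cdkn1a, the p21 gene, stood at 16.6 and 22.7 in WT and 31.8 and 47.5 in Tg (1.01, adjusted p = 0.0557) and differed by 1.00 in free RNA. Of Notch receptors and targets none of 13 passed and 3 had an unadjusted p under 0.05; Hes1, a target, was higher in both Tg mice at 69.3 and 71.7 in WT and 135 and 114 in Tg (0.84, adjusted p = 0.0557), and Rbpj, the DNA-binding effector, lower at 181 and 168 in WT and 73.7 and 121 in Tg (-0.85, adjusted p = 0.0728).

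Interferon-stimulated and antigen presentation genes had 2 falls and no rise in 25, with a median of -0.35. The share that fell was 8%, against 0.417% of all genes. Summed, the list stood at 1589 and 1818 CPM in WT and 1079 and 1980 in Tg in AT1 nuclei. The sums thus overlapped between the genotypes, with Tg 1 the lowest and Tg 2 the highest mouse. With free RNA subtracted none of 19 members passed, and the median was -0.17. Nlrc5, the activator of MHC class I genes, fell, at 58.4 and 35.1 in WT and 7.28 and 18.4 in Tg (-1.87, SE 0.42, adjusted p = 0.0497), and differed by -1.93 in free RNA. Its call was lost at 3000 or more UMIs (-1.82, adjusted p = 0.0542), with stricter markers (-1.81, 0.0581), with nuclei thinned to 1500 UMIs (-1.80, 0.0563) and with free RNA subtracted (-1.51, 0.284). Of 18 clock genes Dbp rose, at 15.5 and 21.3 in WT and 44.9 and 48 in Tg (1.34, adjusted p = 0.0219; 1.94 in free RNA). With free RNA subtracted its difference was 0.56 and the call was lost (adjusted p = 0.519). Of 23 immediate early and heat shock genes Klf4 rose, at 26 and 41.9 in WT and 71.7 and 72.3 in Tg (1.1, adjusted p = 0.0431), and its call was lost with nuclei thinned to 1500 UMIs (0.91, adjusted p = 0.129), at most 10000 UMIs (0.97, 0.0846) and mixed nuclei left out (1.37, 0.0847).

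Markers of other cell types moved with the genotype in part. Of 18 AT2 markers 4 rose, above the 5.8% of all genes. Sftpc, the surfactant protein C gene, stood at 324 and 853 in WT and 4031 and 3562 in Tg in AT1 nuclei (2.73, adjusted p = 0.025) and at 1027 and 2156 in WT and 14966 and 11175 in Tg in droplets without a nucleus; S100g, Sftpa1 and Fabp5 differed by 2.99, 1.44 and 1.41. Of 12 club and airway secretory markers Bpifa1 rose, at 8.92 and 0.158 in WT and 252 and 66.8 in Tg (5.4, adjusted p = 0.0438), and Scgb3a2, at 188 and 124 in WT and 1068 and 481 in Tg (2.36, adjusted p = 0.0345). Of 7 mesothelial markers Msln and Rspo1 rose, by 1.62 and 1.19, and of 4 tested cardiac muscle genes Myl7 rose, by 2.74. The shares that rose were 16.7%, 28.6% and 25% for the club, mesothelial and cardiac lists, against 5.8% of all genes. None of 12 ciliated, 14 endothelial, 13 fibroblast and pericyte and 16 immune markers passed, with medians of -0.06, 0.27, 0.62 and -0.53. An unadjusted p under 0.05 was reached by 2, 3, 3 and 6 of their members, against 4058 of all 14867 genes. None of 5 tested sex genes passed or had an unadjusted p under 0.05. The immune markers summed to 1512 and 3438 CPM of AT1 nuclei in WT and 1397 and 3088 in Tg. The part of these cells' RNA in the AT1 differences was not tested.

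The test of whether the genotype difference in AT1 nuclei differs from that in other barcodes gave few genes. Against all other barcodes, 9 of 19884 genes passed (0.0453%), 1979 had an unadjusted p under 0.05, and all 9 were higher in AT1 nuclei. Slc22a22, a gene of the rule, is among them and is not read further. The number rested on which mice entered the fit: 2 genes passed without Tg 1, 58 without Tg 2, 90 without WT 1 and 187 without WT 2. The direction did too: 37 of the 58 without Tg 2, and 34 of 51 with mixed nuclei left out, were lower in AT1 nuclei. D030024E09Rik, a noncoding gene, stood at 2.8 and 3.79 CPM in WT and 34.1 and 19.6 in Tg in AT1 nuclei and at 3.5 and 1.33 in WT and 1.65 and 1.43 in Tg in other barcodes (difference of log2 differences 3.54, SE 0.42, adjusted p = 0.00407). Cdc20b stood at 10.2 and 7.74 in WT and 13.4 and 10.1 in Tg in AT1 nuclei, where the genotypes overlapped, and at 23.7 and 17.4 in WT and 5.82 and 6.39 in Tg in other barcodes, where it was lower in Tg (2.29, SE 0.25, adjusted p = 0.00317). Syn3, a synapsin, stood at 78.8 and 76.8 in WT and 168 and 127 in Tg in AT1 nuclei and at 101 and 78.6 in WT and 98.9 and 80.7 in Tg in other barcodes (1.06, SE 0.15, adjusted p = 0.0145). Against barcodes that passed the AT2 rule, 3 of 17706 passed (0.0169%), which were Cdc20b, D030024E09Rik and Slc22a22, and 2003 had an unadjusted p under 0.05. Against AT2-enriched barcodes Gm20275 passed of 15430 genes (0.00648%; 1.44, adjusted p = 0.0414), and 678 had an unadjusted p under 0.05.

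Some of these genes lie opposite genes that AT1 nuclei express highly. Syn3 holds the AT1 marker Timp3 on its other strand, at 543 and 513 CPM in the AT1 nuclei of the WT mice and 596 and 485 in those of the Tg mice, against 145 to 181 in other barcodes. Gm5820 overlaps Fgf1, at 265 and 267 and 337 and 285 in AT1 nuclei and 64.5 to 77.9 in other barcodes, and Gm12353 overlaps Wwp1, at 812 and 626 and 542 and 611 and 246 to 283. Gm20275 overlaps Myo9a. None of these 4 partners passed between the genotypes. Cdc20b overlaps Gpx8, a glutathione peroxidase family gene, which did pass, at 5.35 and 6.16 CPM in WT and 15.7 and 14.6 in Tg (1.41, adjusted p = 0.0372). Reads of the partner could not be told from reads of the gene if strand was not used.

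Within a mouse, AT1 nuclei varied widely in Malat1, whose variance was 9.47 to 22.4 times its mean at 1500 UMIs per nucleus, highest in Tg 1, and in Scgb1a1, at 3 to 9.02 times. Of other genes, the ratio was 3.72 to 4.96 for Grip1, a synaptic scaffold, 2.44 to 4.65 for Ank3, ankyrin G, 2.52 to 2.93 for the transmembrane collagen Col23a1 and 2.28 to 2.77 for Sulf1, an extracellular heparan sulfatase. Some of these levels moved with the AT1 markers. Nuclei with marker UMIs under 3 times free RNA held a mean of 1.47 and 1.30 Grip1 UMIs in WT and 1.29 and 1.86 in Tg, and the other nuclei 0.331 and 0.366 and 0.348 and 0.512. Malat1 was the reverse, at 46.2 and 59.2 and 140 and 77.3 against 99.6 and 110 and 302 and 142. Both genes differed in 1 direction in all 4 mice. Ank3, Col23a1 and Sulf1 went with Grip1 in all 4 mice. Ank3 stood at 3.7 and 4.43 in WT and 3.02 and 4.63 in Tg, against 1.9 and 1.91 and 0.901 and 1.68. Col23a1 stood at 1.18 and 1.43 and 1.4 and 1.93, against 0.19 and 0.303 and 0.241 and 0.323. Scgb1a1 was higher in the nuclei under 3 times free RNA in WT, at 10.4 and 14.3 against 8.60 and 10.99. In Tg it was lower, at 48.96 and 19.04 against 49.99 and 19.69. The split uses the marker UMIs of the rule, so these levels describe the nuclei and no test was made of them.

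AT1 nuclei were 2.90% and 3.21% of barcodes with 1500 or more UMIs in WT and 6.38% and 3.47% in Tg, a mean of 3.05% ± 0.22 against 4.92% ± 2.06 (SD, n = 2; exact permutation test, two-sided, p = 0.33, the smallest that 2 against 2 allows). Both Tg shares lay above both WT shares, and the test could not have passed at this size. The difference of 1.87 percentage points was 0.417 without Tg 1. The AT1 marker counts alone were met by 884 and 1768 barcodes in WT and 1903 and 2022 in Tg. Of these, 63 and 485 in WT and 110 and 369 in Tg exceeded the Ptprc limit. The endothelial limit was exceeded by 53 and 118 in WT and 222 and 210 in Tg. The part of these limits in the order of the shares was not tested. Among barcodes with 3000 or more UMIs the shares were 9.98% and 8.77% against 11.3% and 5.96%, which turns the direction. At a depth of 1500 UMIs free RNA gave 3.94 to 6.61 UMIs of the 8 AT2 genes, so that the AT2 rule, which asks for 6, could be met without an AT2 nucleus. The log2 ratio of AT1 nuclei to barcodes passing the AT2 rule was -4.18 and -3.69 in WT and -2.21 and -3.54 in Tg. With AT2-enriched barcodes in their place it was -0.05 and 0.81 against 0.33 and -0.16, again with the direction turned. Of AT1 nuclei, 56.4% and 58.4% in WT and 21.2% and 51.6% in Tg also met the AT2 rule, a difference of -21.0 percentage points that was -5.84 without Tg 1. Thinned to 1500 UMIs, these shares were 7.95% and 10.3% against 4.15% and 10.8%.

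At matched depth Vegfa, Pdpn, Igfbp2 and Cdkn1a overlapped between the genotypes (exact permutation test, p = 0.67 to 1). With 10 or more UMIs from at least 5 markers, Vegfa stood at 77.9% and 65.5% in WT and 58.9% and 54.7% in Tg, and Cdkn1a at 2.68% and 4.03% and 5.59% and 7.46%, both without overlap (exact permutation test, p = 0.33, the smallest possible). The median depth before thinning was 3346 to 4117.5 UMIs in AT1 nuclei and 1894 to 2537 in barcodes passing the AT2 rule. Vegfa had a UMI at 1500 UMIs in 70.8% and 50.5% of AT1 nuclei in WT and 57.9% and 49.0% in Tg, against 10.5% to 15.9% in barcodes passing the AT2 rule, and in 88.1% and 71.3% and 81.4% and 77.9% without thinning. Pdpn had one in 27.2% and 20.3% and 24.5% and 23.3%, against 7.70% to 10.9%. Igfbp2 had one in 20.3% and 11.2% and 14.8% and 13.1%, against 4.67% to 9.17%, and Cdkn1a in 3.21% and 5.02% and 4.22% and 7.40%, in each mouse below the share in barcodes passing the AT2 rule, which ran from 5.07% to 13.1%. Sftpc, which AT1 cells lack, had one in 40.5% and 75.2% of AT1 nuclei in WT and 99.2% in each of the Tg mice (74.1% and 96.0% and 100% and 100% without thinning), against 68.5% to 99.8% in barcodes passing the AT2 rule, and Scgb1a1, a club cell gene, in 99.7% to 100% of AT1 nuclei.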

How the data were processed

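Nuclei of whole lungs from 2 WT and 2 Tg mice were sequenced with a droplet-based 3′ kit. The authors deposited a gene by barcode matrix of UMI counts for each mouse, not normalized, made per the submitters' processing notes with Cell Ranger 6.1.1 against mm10; the matrix headers name Cell Ranger 4. The study's methods state that intronic reads were counted, so nuclear precursor RNA is included and longer genes can be favoured. All 32285 genes were kept, and library totals were 125261739 and 146133943 UMIs (WT) and 128645180 and 182014706 (Tg).

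UMI counts of AT1 nuclei were summed per mouse, since nuclei are not replicates, and fitted with edgeR 4.0.16 (R 4.3.3; TMM, filterByExpr with min.count 10, glmQLFit and glmQLFTest, Benjamini-Hochberg, threshold 0.05). The difference of genotype differences between AT1 nuclei and other barcodes was an interaction with a term per mouse. Shares were compared over mice by exact permutation (SciPy 1.17.1), which with 2 against 2 cannot go below p = 0.33. Levels are CPM, each gene's UMIs over all UMIs of the class in that mouse. Fits were tested on simulated data. Other steps used Python 3.11.15, NumPy 2.4.6 and pandas 2.3.3, and genes were placed with the GENCODE annotation of the same build. The labels do not say more about the independence of the mice, so p-values measure the spread between these samples.

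The members and the 25 gene lists were chosen with earlier results of these data known. Named genes were the largest rises and falls, up to 10 each way, among genes past the threshold that did not overlap between genotypes and stood at least 2-fold over droplets without a nucleus, together with up to 4 members past the threshold of each list (or the 2 with the lowest p) and the interaction genes past the threshold; other members are named for their role. Chosen after seeing the data were droplets without a nucleus (barcodes ranked 45000 to 90000 by UMIs, in place of barcodes with 10 to 100 UMIs, which held too few), AT2-enriched barcodes (3000 or more UMIs, 10 or more UMIs from at least 4 of Lamp3, Abca3, Slc34a2, Etv5, Lpcat1, Hc, Acoxl and Lrp2, and at least 2 times the level of free RNA), and the promoter window of 250 bases. Barcodes passing the AT2 rule needed 1500 or more UMIs and 6 or more from at least 4 of those 8 genes. Alternatives were DESeq2 1.42.0, no filter, no TMM, a replicate block, leaving out each mouse, other limits on depth and markers, leaving out mixed nuclei, thinning to 1500 UMIs, and subtracting free RNA. Values of a few list members are not reported here.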

Additional observations from a re-analysis of the deposited data

Results flagged for a closer look

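Genes whose genotype difference was larger in AT1 nuclei than in other barcodes of the same mice, by the interaction test, are given here with that excess on the log2 scale. Each had the same sign under all alternatives run, but its adjusted p rose to between 0.18 and 1 under the least favourable one, and this was not tested further.

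Cdc20b had an excess of 2.24 against barcodes passing the AT2 rule and 2.29 against all other barcodes. It stood at 10.2 and 7.74 CPM in WT and 13.4 and 10.1 in Tg in AT1 nuclei, at 23.7 and 17.4 in WT and 5.82 and 6.39 in Tg in other barcodes and at 19.6 and 13.2 in WT and 2.54 and 4.75 in Tg in droplets without a nucleus, so the genotypes overlapped in AT1 nuclei and separated elsewhere. Cdc20b is known from multiciliated cells. D030024E09Rik had an excess of 3.88 and 3.54 in the same comparisons, from 11 and 24 UMIs in WT and 206 and 135 in Tg in AT1 nuclei.

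Against all other barcodes, Gm5820 had an excess of 1.85, with 7.65 and 5.69 CPM in WT and 30.6 and 17.5 in Tg in AT1 nuclei, and 4632428C04Rik one of 1.58, with 10.4 and 6.63 in WT and 22.8 and 19.9 in Tg. Gm20275 had an excess of 1.18, with 80.8 and 90.5 in WT and 163 and 135 in Tg, Syn3 one of 1.06, with 78.8 and 76.8 in WT and 168 and 127 in Tg, and Gm12353 one of 1.02, with 80.3 and 74.6 in WT and 333 and 220.4 in Tg. Rpl7, a ribosomal protein gene, had an excess of 0.82, with 32.1 and 97.3 in WT and 216 and 259 in Tg in AT1 nuclei and 112 and 356 in WT and 844 and 767 in Tg in droplets without a nucleus, where it stood higher. The median gene also had an excess, of 0.15 against all other barcodes and 0.12 against barcodes passing the AT2 rule, which was -0.01 and 0.04 with library size only, and -0.06 against all other barcodes without Tg 2.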

How the results depend on the processing

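With 2 mice a genotype, the number of calls depends on which mice enter. In place of 924 genes, between 4 (without Tg 1) and 3050 (without WT 2) passed with 1 mouse left out, and in place of 15 list members between 0 and 72. The number of genes was 606 with nuclei thinned to 1500 UMIs, 181 with free RNA subtracted and 2893 with no filter, of which 72.7% were higher; DESeq2 gave 1160, 823 of them shared. In the lists the number was 2 with free RNA subtracted and 54 with no filter. The replicate numbers of the titles name no shared litter or batch, and over 14867 genes the deviations of same-numbered mice had a correlation of 0.149 in 2 pairs; with the replicate block 1754 genes passed, 34 of them list members, and all 924 were kept.

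Against barcodes passing the AT2 rule the 3 genes became 373 with no filter, 8 without TMM, 1 at 3000 or more UMIs, 319 with stricter markers, 218 without mixed nuclei, 223 with members at 3 or more times free RNA, 1 against AT2-enriched barcodes, and 11 (without Tg 1) to 74 (without Tg 2) with a mouse left out. Against all other barcodes the 9 became 418, 2, 1, 366, 51 and 332 under no filter, no TMM, 3000 or more UMIs, stricter markers, mixed nuclei left out and 3 times free RNA, and 2 to 187 with a mouse left out. The cause was not tested.

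The difference in AT1 share reversed to -0.73 at 3000 or more UMIs, and the log2 ratio to -0.30 with AT2-enriched barcodes. Of the shares with a UMI, that of Vegfa went to 0.0005 points without thinning, and that of Pdpn to -0.96 without thinning and -2.67 with stricter markers. With a mouse left out, the differences ran from 0.417 to 3.32 for the AT1 share, 0.40 to 1.73 for the log2 ratio, -36.2 to -5.84 for nuclei meeting the AT2 rule, 6.70 to 8.74 for Krt8, -6.32 to 2.69 for Igfbp2, 0.110 to 3.29 for Cdkn1a, -17.3 to 2.95 for Vegfa, -3.29 to 3.58 for Pdpn, 24.0 to 58.7 for Sftpc and 0.0809 to 0.256 for Scgb1a1. For 33 named genes, 415 of 503 values kept direction and call, 88 lost the call and 0 reversed. Most losses came with a Tg mouse left out or with free RNA subtracted (21). A gene that a setting left untested gives no value there. That was most frequent with mixed nuclei left out (18 kept, 3 lost) and with thinning to 1500 UMIs (19 kept, 6 lost).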
